A study of Mus musculus with 12 samples.

Results

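The constitutive proteasome genes of mouse macrophages are described here across their input RNA, their m6A peaks and their peaks in a list deposited for YTHDF2. They are the rows of the expression table whose symbol is Psma, Psmb, Psmc, Psmd, Psme, Psmf or Psmg followed by a number, without the 5 interferon-induced genes Psmb8, Psmb9, Psmb10, Psme1 and Psme2. The rule found 43 of 27013 rows, and 41 of them were among the 10778 genes with an adjusted p. The cells were macrophages grown from the bone marrow of C57BL/6 mice, either wild type (WT) or carrying a conditional knockout of Ythdf2 (cKO). They were cultured for 7 days with 20 ng/ml M-CSF, and all groups then received LPS at 100 ng/ml together with IFN-γ at 20 ng/ml for 24 hours, which gives the inflammatory state called M1. The 12 libraries form 6 groups of 2, namely m6A immunoprecipitate and input of each genotype, and YTHDF2 immunoprecipitate and input of WT cells. The sources used here do not give what drives the deletion. They also do not say whether the 2 libraries of a group are separate animals or dishes, and the spread behind the p-values may therefore be technical.

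The 26S proteasome degrades proteins tagged with ubiquitin. Its 20S core is a stack of rings of alpha (Psma) and beta (Psmb) subunits, with the cutting sites on Psmb5, Psmb6 and Psmb7. Its 19S cap has a base, with a ring of ATPases (Psmc) that unfold substrates, and a lid (most Psmd) that removes ubiquitin. Interferon makes cells replace the 3 cutting subunits by Psmb8, Psmb9 and Psmb10, which favours peptides for antigen presentation. N6-methyladenosine (m6A) is a mark on mRNA, mostly near stop codons, and YTHDF2 is a protein that reads it and promotes decay of the marked RNA.

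The labelled cell type was checked against markers. All 8 macrophage markers were tested genes, with mean normalized counts from 2991 to 204979 in the authors' deposited table. Of these 8, 3 were called between the genotypes, while 2.32% of all tested genes were called. Of 8 M1 activation markers 7 were tested and 2 called, and the mean counts of the 8 ran from 19.6 to 31637. Of 8 neutrophil markers 4 were tested and 1 called, and their highest mean count was 8496. The highest mean count was 1.37 among T and NK cell markers, of which only 3 of the 6 listed had a row. It was 49.0 among B cell markers and 30.1 among dendritic cell markers. Among erythroid markers, of which 3 of 4 had a row, the highest was 50.7. Among fibroblast markers it was 580, and 1 of these was called. The part of these differences in the proteasome values was not tested. In the authors' deposited table Ythdf2 itself lay at 1.10 ± 0.16 (log2 fold change ± SE, adjusted p 2.06e-09 by their Wald test). The sources used here do not say which genotype is the numerator, so a positive value is called the side of Ythdf2.

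The table holds finished comparisons and mean normalized counts, not values per library. The smallest mean counts fell on 4 single-read steps, which give size factors of 0.884 to 1.28 for 4 libraries. In bulk RNA, fewer cells of a type and less RNA per cell cannot be told apart.

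Constitutive proteasome transcripts showed small differences between the genotypes, and the values lay on both sides of 0. In the authors' deposited table none of the 41 tested members had an adjusted p under 0.05 (Wald test with Benjamini-Hochberg adjustment), while 2.32% of all tested genes did. At an unadjusted p under 0.05 there were 2, Psmd8 and Psmd10, beside 9.99% of all tested genes. The members' median log2 fold change was 0.00, with 21 above and 20 below 0, and that of all tested genes was −0.01. The median size of the log2 fold change without its sign was 0.07 among members and 0.13 among all tested genes. Less the median of the most abundant 25% of tested genes (0.04), 15 members lay above and 26 below 0. Of all 10778 tested genes 4320 lay above and 6457 below 0 after the same step. The plot of fold changes by role shows these values with their intervals.

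**Figure D1:**
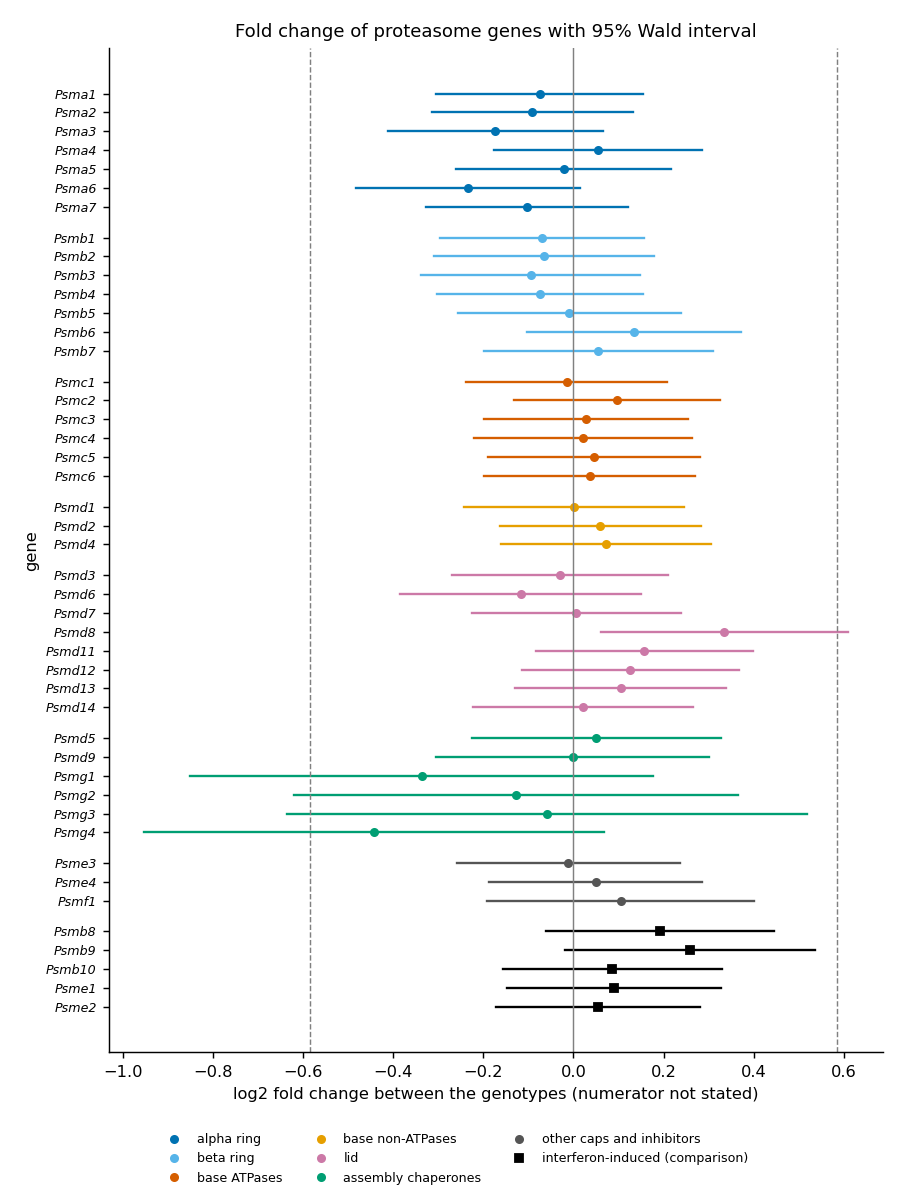
Log2 fold change (x axis) of 40 of the 41 tested members, by role, and of the 5 interferon-induced genes (black squares), with 95% Wald intervals computed from the authors' standard errors as lines. Dashed lines mark 1.5-fold, and Psmd10 at 4.42 is left out because its interval runs from 0.58 to 8.26. All intervals but those of Psmd8 and Psmg1 to Psmg4 lie inside the dashed lines, and of those drawn only that of Psmd8 does not reach 0.

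The precision bounds the size of a difference between these libraries that could have been missed. The spread behind the SE may be technical, so the intervals may be too narrow for a difference between the genotypes. For 35 of 41 members the 95% Wald interval, made from the authors' standard error, lay within 1.5-fold in either direction, as it did for 63.8% of all tested genes. Among genes with a mean count of at least 1000, a range chosen after the values were seen, this held for 33 of 34 members and for 90.1% of tested genes up to the members' highest count. In that range the median size of the log2 fold change was 0.06 for members and 0.10 for all. The 6 members with wider intervals were Psmd8, Psmd10 and the 4 chaperones Psmg1, Psmg2, Psmg3 and Psmg4. The plot of mean count against fold change places them among all tested genes.

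**Figure D2:**
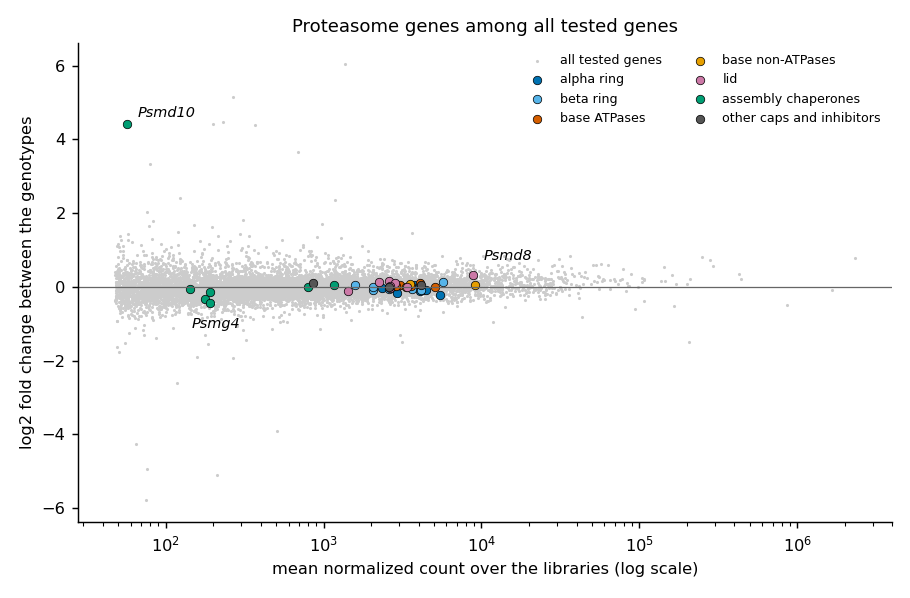
Mean normalized count (x axis, log scale) against log2 fold change (y axis) of all 10778 tested genes (grey) and of the 41 tested members, coloured by role. The members with counts of 1000 or more lie between −0.23 and 0.33, and Psmd10, at a mean count of 57.2, lies at 4.42.

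In the 20S core, the alpha ring genes leaned to the side opposite Ythdf2 without passing the test. Of 7 tested alpha genes 1 lay above and 6 below 0 in the authors' deposited table, with a median of −0.09. The most negative was Psma6 at −0.23 ± 0.13 (SE, p 0.065, adjusted p 0.564), and Psma3 followed at −0.17 ± 0.12. Psma1, Psma2, Psma5 and Psma7 lay between −0.10 and −0.02, and Psma4 was at 0.05 ± 0.12. Of the 7 tested beta ring genes 2 lay above and 5 below 0, with a median of −0.07 in the authors' deposited table. Psmb1, Psmb2, Psmb3 and Psmb4, which carry no cutting site, lay between −0.09 and −0.07.

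The 3 cutting subunits stayed near 0. Psmb5, which cuts after hydrophobic residues (chr14:54614120-54617995), was at −0.01 ± 0.13 in the authors' deposited table. Psmb6, which cuts after acidic residues (chr11:70525324-70527858), was at 0.13 ± 0.12 there. Psmb7, which cuts after basic residues (chr2:38588046-38643952), was at 0.06 ± 0.13, and the adjusted p of the 3 genes ran from 0.879 to 1.00. Their interferon-induced replacements were at 0.19 ± 0.13 (Psmb8, for Psmb5), 0.26 ± 0.14 (Psmb9, for Psmb6) and 0.09 ± 0.12 (Psmb10, for Psmb7) in the authors' deposited table. Psme1 and Psme2, which form the interferon-induced PA28 cap, were at 0.09 ± 0.12 and 0.05 ± 0.12. All 5 lay above 0, and none passed the Wald test (lowest adjusted p 0.569, that of Psmb9), while 2.32% of all tested genes did. None of the 5 had an unadjusted p under 0.05, beside 9.99% of all tested genes. The difference between a subunit and its replacement was not tested, since the table gives no covariance.

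In the 19S base, the 6 ATPase genes lay close to each other. They ran from −0.01 (Psmc1) to 0.10 (Psmc2) in the authors' deposited table, each with an SE of 0.11 to 0.12. Before centring 5 lay above 0, and after it 2 did. The 3 other base genes, the scaffolds Psmd1 and Psmd2 and the ubiquitin receptor Psmd4, lay at 0.00, 0.06 and 0.07, with an SE of 0.11 to 0.12. Psmd1 fell below 0 with centring.

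The lid held the most positive of the 26S subunits. Psmd8 (chr7:29174187-29180673), a lid subunit joined late in its assembly, was at 0.33 ± 0.14 in the authors' deposited table (p 0.0166, adjusted p 0.288), with a 95% interval of 0.06 to 0.61. Psmd11 followed at 0.16 ± 0.12, Psmd12 at 0.13 ± 0.12 and Psmd13 at 0.11 ± 0.12. Psmd14, the enzyme that removes ubiquitin chains, was at 0.02 ± 0.12 and its partner Psmd7 at 0.01 ± 0.12, and both lay below 0 with centring. Psmd3 was at −0.03 ± 0.12 and Psmd6 at −0.12 ± 0.14. The lid as a group had 6 of 8 genes above 0 and a median of 0.06, or 4 of 8 and 0.02 with centring.

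The assembly chaperones held both the most positive and the most negative tested members, and the least precise ones. Psmd10, which encodes gankyrin, a chaperone of the base (chrX:140948425-140956711), was at 4.42 ± 1.96 in the authors' deposited table (p 0.024, adjusted p 0.343) at a mean count of 57.2. The lowest mean count of any tested gene was 48, and 9 of 10778 tested genes, Psmd10 included, had so large an SE. The other base chaperones, Psmd5 and Psmd9, were at 0.05 ± 0.14 and −0.00 ± 0.15. The alpha ring chaperones Psmg4, Psmg1, Psmg2 and Psmg3 were at −0.44 ± 0.26 (adjusted p 0.637), −0.34 ± 0.26 (0.824), −0.13 ± 0.25 (0.980) and −0.06 ± 0.29 (0.997) in the authors' deposited table, with mean counts of 143 to 191.

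The genes of other caps and of an inhibitor lay near 0. In the authors' deposited table Psme3, the nuclear PA28 gamma cap, was at −0.01 ± 0.13. Psme4, the PA200 cap, was at 0.05 ± 0.12 and Psmf1, the inhibitor PI31, at 0.10 ± 0.15. The 2 members without an adjusted p encode tissue-bound subunits. Psma8, the alpha subunit of testis, had a mean count of 26.4 and a value of −0.66 ± 0.64. Psmb11, the beta subunit of thymus, had a mean count of 0.391, equal to 2 reads at the lowest step, and a value of −2.04 ± 4.91. A pseudogene row, Psma5-ps, had a mean count of 173, and the 4 other rows of that kind had 6.29 or less; the sources used here do not give how reads shared with Psma5 were counted.

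Of 35 listed genes that assemble, feed or regulate the proteasome, 34 were in the table and 33 were tested. None of the 33 passed in the authors' deposited table (Wald test, adjusted p under 0.05), while 2.32% of all tested genes did. At an unadjusted p under 0.05 there were 3 of 33, beside 9.99% of all tested genes. Rps27a, which encodes ubiquitin fused to a ribosomal protein, was the most negative at −0.26 ± 0.12 (adjusted p 0.337). Zfand2a, a heat- and arsenite-induced proteasome adaptor, was at 0.33 ± 0.14 (adjusted p 0.278). Nfe2l1, the factor known to raise proteasome transcription when proteasomes are inhibited, was at 0.08 ± 0.12, and the core assembly factor Pomp at −0.10 ± 0.12. Ubd, at a mean count of 13.4, had no adjusted p, and Paaf1 was not among the rows used.

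The promoters were searched because the members share a known regulator. Nfe2l1 binds antioxidant response elements, written here as TGACNNNGC and searched on both strands in the 250 bases before each RNA start, in RefSeq sequences of GRCm38.p6 (the coordinates of mm10). Of the 43 members 35 matched the promoter table, and 5 of these (14.3%) held the letters, beside 14.1% of 8307 tested genes and 11.5% of all promoters. In Psmb5, Psmb6 and Psmd9 they lay within 60 bases of the RNA start that the promoter table uses, and those stretches are shown 5′ to 3′ on the RNA's strand with the match in capitals. Psmb5 is at chr14:54618003-54618062 (minus strand), Psmb6 at chr11:70525297-70525356 (plus) and Psmd9 at chr5:123228130-123228189 (plus). For Psmb6 that start lies downstream of the RefSeq gene start at 70525324, so its match lies inside the gene span given above.
Psmb5: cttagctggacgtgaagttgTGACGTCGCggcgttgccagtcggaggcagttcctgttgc
Psmb6: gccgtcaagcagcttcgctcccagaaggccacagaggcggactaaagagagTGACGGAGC
Psmd9: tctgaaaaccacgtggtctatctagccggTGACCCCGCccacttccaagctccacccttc
The other 2 with a match, Psmc6 and Psmd12, had it farther upstream. Of 3 more motifs, all chosen after results were known, CCAAT was in 37.1% of members and 40.2% of tested genes, and GGGCGG in 54.3% and 64.4%. CCGGAA, the core bound by ETS factors, was in 17 of 35 members (48.6%) and in 27.3% of tested genes. A match describes letters and is not a site, and the motifs' part in the fold changes was not tested.

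The m6A list, a single list that its name gives as WT, held 29 peaks in 18 of the 41 tested members. The labels attach the same list to the cKO immunoprecipitates as well. The share of members with a peak was 43.9%, beside 45.4% of all tested genes and 45.3% of tested genes within the members' range of mean counts. From a mean count of 1000 up, a limit chosen after the values were seen, it was 17 of 34 members (50%) and 64.4% of genes. By role, 5 of 6 base ATPases carried a peak, as did 2 of 3 other base genes and 4 of 8 lid genes. So did 3 of 7 tested beta genes, 2 of 7 tested alpha genes, 1 of 7 chaperones and 1 of 3 cap or inhibitor genes. Psmd2, the base scaffold that docks ubiquitin shuttles, had the most at 5. Psmc2 followed with 3 peaks, and Psma3, Psmc1, Psmc3, Psmc6 and Psmd4 had 2. Of the 251 genes in the list with at least as many peaks as Psmd2, it was the only proteasome member.

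Many of the members' m6A peaks lay early in their genes. As the RefSeq gene runs from RNA start (0%) to end (100%), the median midpoint of the 29 peaks was at 33.8%, beside 83.3% for all 9341 m6A peaks that could be placed. In the first 20% of the gene, a share chosen after the positions were seen, lay 12 of 29 midpoints (41.4%), beside 10.6% of all placed peaks. In the last 20% lay 9 of 29 (31.0%), beside 54.4%. The positions count introns, and some peaks span several exons. With peaks of at most 1000 bp alone, 12 of 21 (57.1%) lay in the first 20%, beside 10.3% of all such peaks, and without Psmd2 it was 9 of 24. Peaks of a gene share its libraries and sequence, and no test was made. The histogram of positions sets both lists against all genes.

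**Figure D3:**
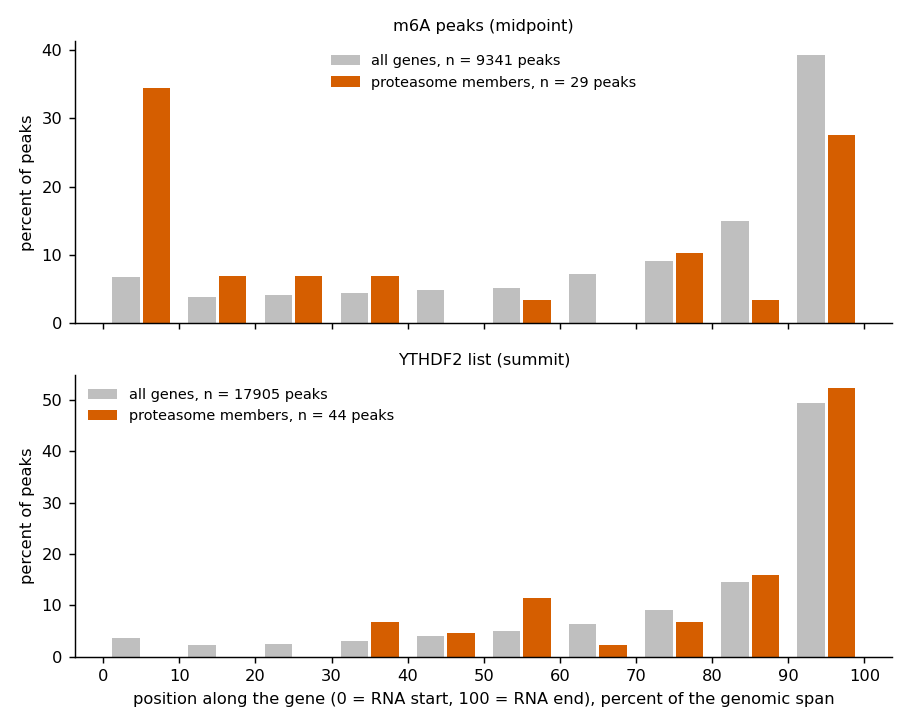
Share of peaks (y axis, percent) by position along the gene in steps of 10% (x axis, introns included), for all genes (grey) and proteasome members (orange), in the m6A list (upper) and the YTHDF2 list (lower). In the first step lie 34.5% of the members' m6A peaks and 6.81% of all m6A peaks, while both orange and grey bars of the lower panel are highest at the RNA end.

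The base ATPases held 10 of the 29 m6A peaks. These fell in Psmc1, Psmc2, Psmc3, Psmc5 and Psmc6, with 6 in the first 20% and 0 in the last 20% of the gene. The other members had 6 of 19 (31.6%) in the first 20%. The latter 6 were 1 peak each in Psmb7, Psmd3 and Psmd6, and 3 in Psmd2. Psmb7's peak began 111 bp from the RefSeq start. The 9 peaks in the last 20% lay in Psma3, Psma4, Psmb1, Psmb6, Psmd4, Psmd5, Psmd8 and Psmf1.

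Some peaks reached the RNA start itself. In Psmc1, Psmc5, Psmc6 and Psmd4 a peak covered at least 1 of the first 50 bases, which is 4 of 29 peaks (13.8%) beside 2.67% of all placed peaks. Those of Psmc5 and Psmd4 are long, at 4741 and 6764 bp. With spans of at most 1000 bp, 2 of 21 peaks (9.52%) covered one of these bases, beside 2.45% over all genes. The stretches around GGAC, the usual core of an m6A site, are shown because they lie under such a peak, with GGAC in capitals (RefSeq, GRCm38.p6, plus strand, chr12:100110183-100110212 for Psmc1 and chr14:45329840-45329869 for Psmc6). In Psmc1, whose peak spans chr12:100110154-100110281, the letters lie just before the RefSeq start at 100110202. In Psmc6, whose peak spans chr14:45329788-45329912, they lie just after the start at 45329823.
Psmc1: gtggcgatttggaGGACtgaaggaagatgg
Psmc6: ttctcatcatggcGGACcctagagataagg
The 81 bases of Psmc5 and the 42 of Psmd4 that lay both under the peak and in the table held no GGAC. In the first 50 transcribed bases GGAC was found in 7 of 35 members (20%) and in 23.7% of tested genes. Which base was marked is not given by the list.

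The list deposited for YTHDF2 held 46 peaks in 27 of the 41 tested members (65.9%), beside 64.5% of all tested genes and 64.6% within the members' range of mean counts. From a mean count of 1000 up it was 24 of 34 (70.6%) and 85.4%. All 17843 distinct peaks of this list carry names that start with m6a_peak, and whether it holds peaks of YTHDF2 or of m6A libraries was not tested. By role, peaks were named for 5 of 6 ATPases, 3 of 3 other base genes and 5 of 8 lid genes. They were also named for 5 of 7 tested beta genes, 3 of 7 tested alpha genes, 4 of 7 chaperones and 2 of 3 cap or inhibitor genes. Psmd2 again had the most, with 4, and Psmd5, Psmd13, Psme3 and Psme4 had 3 each. The 2 peaks named for Psmc3 lie past the end of the RefSeq gene and are also named for its neighbour Slc39a13, so 26 members had a summit inside their RefSeq gene, a check added after the values were seen.

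The summits sat late in the gene. Of 44 summits inside a RefSeq gene 0 lay in the first 20% and 30 (68.2%) in the last 20%, beside 5.89% and 64.1% over all genes. Of the 46 summits 22 (47.8%) fell in coding sequence, 10 (21.7%) in a 3′ UTR and 0 in a 5′ UTR, beside 34.7%, 37.4% and 2.02% of 18657 placements over all genes. The 14 others (30.4%, beside 25.9%) were placed in introns. Of these, 9 peaks touched an exon, with the summit 1 to 60 bases from it. The 5 that touched no exon were 3 in Psmd5 and the 2 named for Psmc3. The map of peaks along each gene shows both lists.

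**Figure D4:**
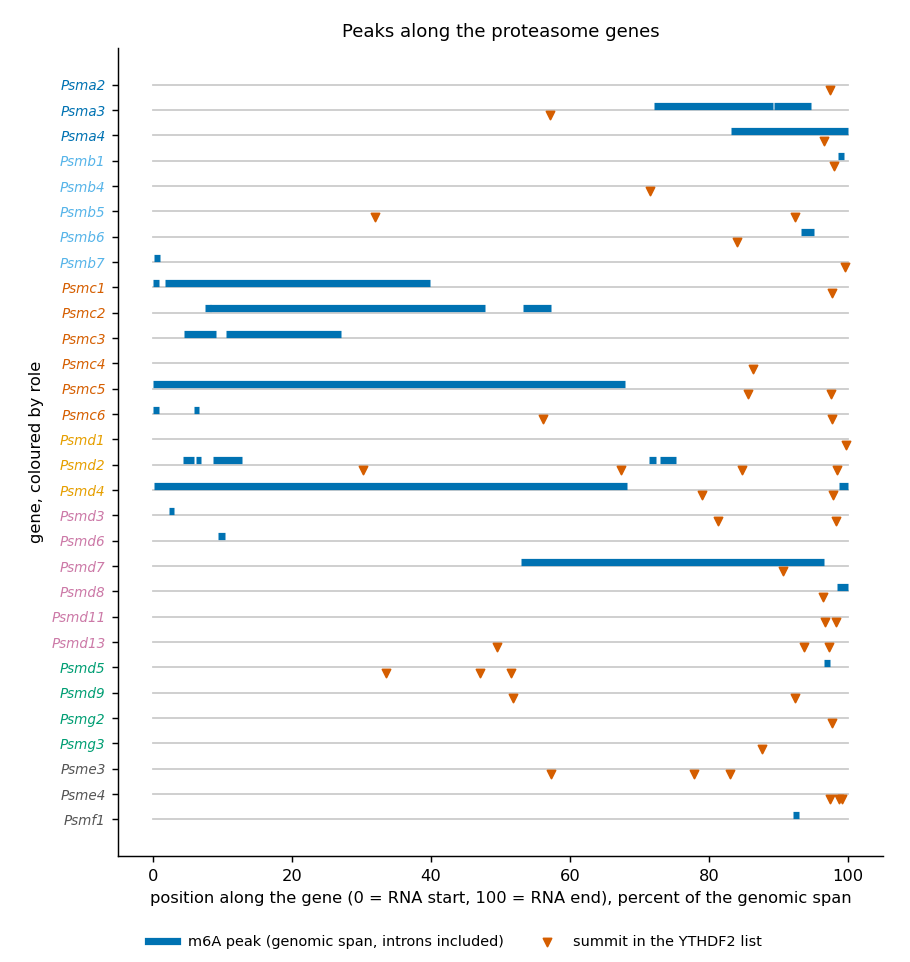
Position of m6A peaks (blue bars, genomic span) and of summits in the YTHDF2 list (orange triangles) along each member with a peak, from RNA start (0) to RNA end (100) on the x axis, with gene names coloured by role. The first blue bar of each of Psmc1, Psmc2, Psmc3, Psmc5 and Psmc6 starts in the first 10% of the gene, and the triangles crowd at the right; the 2 peaks named for Psmc3 lie outside its gene and are not drawn.

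The fold enrichment of a peak at its summit is the authors' own value. Its median was 2.79 over the members' 46 peaks (1.73 to 13.3) and 3.01 over all 17843. The highest was that of Psmg2, an alpha ring chaperone, at 13.3, and 3 peaks of the whole list were higher. Psmd5 followed at 5.42 and Psmd9 at 5.30, both chaperones of the base, and then Psme4 at 4.98. Psmg2, Psmd9 and Psmd5 had mean counts of 191, 793 and 1169 in the authors' deposited table, below those of most members. Over 6954 tested genes with a peak, Spearman's rho between mean count and highest enrichment was −0.39 and Pearson's r on the log2 scale −0.41. Among the 27 members with a peak rho was −0.15 and r −0.60, and without Psmg2 they were −0.05 and −0.36. The genes share libraries and depth, so these are descriptions. A limit of 3 left 17 of the members' 46 peaks (37.0%), beside 50.5% of the whole list, and 11 of 41 tested members (26.8%), beside 41.3% of tested genes.

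**Figure D5:**
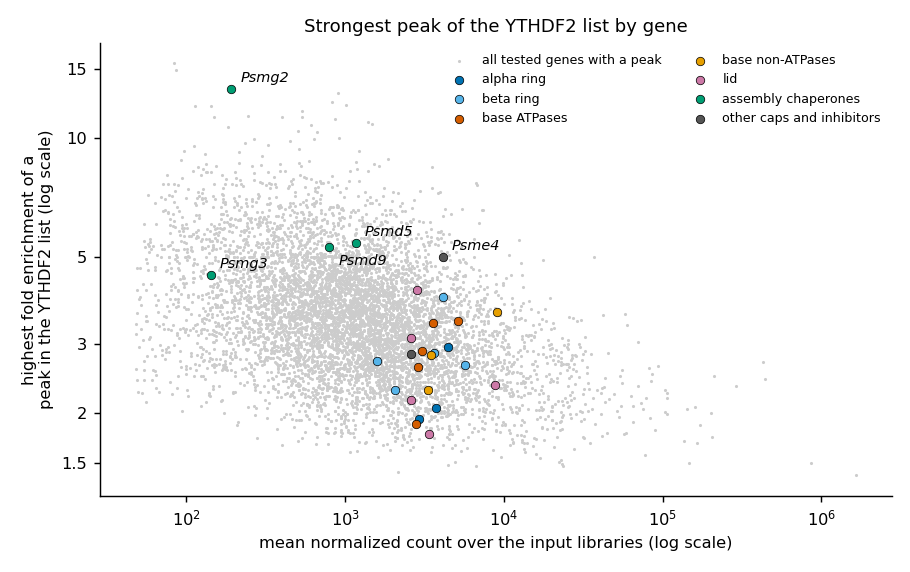
Mean normalized count (x axis, log scale) against the highest fold enrichment of the gene's peaks in the YTHDF2 list (y axis, log scale) for tested genes with a peak (grey) and 27 members coloured by role. Psmg2 is the highest member at 13.3, and the other named genes, Psmg3, Psmd5, Psmd9 and Psme4, lie between 4.48 and 5.42.

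Few of the members' m6A peaks met a peak of the other list. An overlap of at least 1 bp was found for 4 of 29 (13.8%), in Psma4, Psmb6, Psmd4 and Psmd7, beside 49% of all placed m6A peaks. In genes that held peaks of both lists it was 4 of 24 (16.7%), beside 58.1%. None of the 10 ATPase peaks overlapped. Near misses were Psmb1, with a gap of 24 bp, and Psmd8, with a gap of 46 bp. An overlap of at least 50% of the m6A peak was found for 2 of 29 (6.90%), beside 30.7% of all placed peaks. With enrichments of at least 3 there were 0 of 29, beside 19.3%.

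Without matching for mean count, members carried both kinds of peak at close to the rate of all tested genes. Both were found in 15 of 41 tested members (36.6%), beside 35.8% of tested genes. The 15 include Psmc3, whose peaks of the YTHDF2 list lie outside its RefSeq gene. From a mean count of 1000 up, 15 of 34 members (44.1%) had both, and the share of genes in that range was not computed. In that range each list alone held a smaller share of members than of genes. The shares were 50% beside 64.4% for m6A, and 70.6% beside 85.4% for the YTHDF2 list. Psmc2, Psmd6 and Psmf1 had an m6A peak alone. Psma2, Psmb4, Psmb5, Psmc4, Psmd1, Psmd9, Psmd11, Psmd13, Psmg2, Psmg3, Psme3 and Psme4 had a peak of the YTHDF2 list alone. Psma1, Psma5, Psma6, Psma7, Psma8, Psmb2, Psmb3, Psmb11, Psmd10, Psmd12, Psmd14, Psmg1 and Psmg4 had neither. Psmd8, the member with the lowest p, had 1 peak of each kind near its RNA end.

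Fold changes were set beside the peaks. In the authors' deposited table the median log2 fold change was 0.05 for the 18 members with an m6A peak and −0.02 for the 23 without. It was 0.02 for the 27 with a peak of the YTHDF2 list and −0.07 for the 14 without. Over tested genes it was 0.03 for those with an m6A peak and 0.01 for those with a peak of the YTHDF2 list. Over all tested genes the median was −0.01, and for tested genes without a peak it was not computed. Of 4891 tested genes with an m6A peak 2813 lay above and 2078 below 0, beside 5246 and 5532 of all tested genes. The groups of members also differ in mean count. Its median was 3450 with an m6A peak and 2605 without, and 3033 with a peak of the YTHDF2 list and 2299 without. The difference between the medians of log2 fold change was not tested.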

How the data were processed

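Of 12 libraries, 3 deposited files were used, with no values per library. The first compares m6A input RNA of both genotypes. Its columns are named as DESeq2 names its results, per the file headers. Its mean count is a signal: the authors divided counts by size factors and averaged them. The log2 fold change and its SE were deposited by the authors. The Wald statistic is a score the authors deposited, and it equalled the log2 fold change over its SE. The p-value columns were deposited too, and a Benjamini-Hochberg adjustment over 10778 genes gave the same adjusted values. The second file, of 10290 m6A peaks, is named for exomePeak2, per the labels. The third gives, in narrow-peak order, a ratio (fold enrichment at the summit), −log10 p and q and a score that the authors deposited; 3234 repeated rows were dropped. The sources used here do not give its peak caller. The submitters' processing notes name HISAT2, HOMER, ChIPseeker and mm10 without roles or versions.

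Peaks were joined by symbol or RefSeq synonym (GRCm38.p6). An m6A peak was placed where it lay within 1000 bp of its RefSeq gene. Wald intervals, counts and positions were computed with Python 3.11.15, pandas 2.3.3, numpy 2.4.6 and scipy 1.17.1, and the recalculated Wald test was checked on simulated data. Every member was named, in order of role. Log2 fold changes with an SE or its range went to the 3 most positive and 3 most negative and to the cutting subunits. They also went to those with most peaks or highest enrichment and those without an adjusted p. Members and lists were chosen with earlier results of these data known. Alternatives were no filter on low counts, centring, a minimum fold, and limits on span, enrichment, q, overlap and feature. Psmb1, Psmb2, Psmb7, Psmc3, Psmd3, Psmd7, Psma8 and Psmg2 had no entry in the promoter table. A gene of the pathway list, counted in its totals, is not reported here.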

Additional observations from a re-analysis of the deposited data

How the results depend on the processing

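No paired analysis was possible because the comparison table holds no values per library, and for the same reason no library could be left out. With no filter on low counts, with centring on the most abundant 25% of genes, or with a minimum of 1.5-fold, 0 proteasome members were called. With the first 2 of these, 0 interferon-induced and 0 other pathway genes were called. Of all 10778 tested genes 177 were called with no filter and 221 with centring. The members' median log2 fold change turned from 0.0015 to −0.0375 with centring and to −0.002 with every member included. Centring turned 6 of 41 members, Psmc3 to −0.0114, Psmc4 to −0.0185, Psmc6 to −0.003, Psmd1 to −0.0375, Psmd7 to −0.0329 and Psmd14 to −0.0175. Members with a peak of the YTHDF2 list went from 27 to 11 at a fold enrichment of at least 3, and ranged from 22 to 26 under the limits on q, exon, RefSeq gene and naming. The 4 overlaps became 2 with at least 50% of the m6A peak covered and 0 at a fold enrichment of at least 3. With m6A spans of at most 1000 bp they became 2 of 21 (9.52%), beside 49.8% of all placed peaks of such spans. Members with an m6A peak were 14 under that span limit. Shares of tested genes under the limits on q, exon, RefSeq gene, naming and span were not computed. Low counts limit Psmd10 and Psmg1 to Psmg4, and fold enrichment without counts per peak has no error.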
